A study of Mus musculus with 4 samples.

Results

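The genes described here encode the protein axis of meiotic chromosomes and the complex that joins paired chromosomes along it. They are Hormad1, Hormad2, Sycp1, Sycp2, Sycp3, Smc1b, Stag3, Rec8, Syce1 and Syce2. Hormad1 was chosen by its difference between the diets on these same arrays, and the other 9 genes were selected by their role beside it, so the differences between the diets are given here as a description with no test. The 10 genes were measured by 16 probes, out of 22909 genes with a symbol and a usable probe on the array. Livers of mid-gestation C57BL/6J mouse fetuses were compared by the diet of the dam during gestation, with 2 arrays for a control diet (CD) and 2 for a high-fat diet (HFD). As the study states it, fat gave 4.3% of the energy of the CD, carbohydrate 67.3% and protein 19.2%. The HFD took 60% of its energy from fat and 20% each from carbohydrate and protein. The stated shares of the CD do not add up to the whole, so their unit is uncertain. The comparison asks which liver transcripts of the fetus differed with the diet of the dam. The submitters call the arrays of a diet biological replicates, and the sources used here do not say how many fetuses or dams stand behind each array.

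Meiosis is the pair of cell divisions that makes eggs and sperm, and in the fetal mouse it begins in the germ cells of the ovary around mid-gestation, while germ cells of the testis wait until after birth. Before the first division each chromosome is folded into loops along an axis of cohesin rings and axis proteins, and matching chromosomes are then zipped together by the synaptonemal complex. Most genes of this machinery are kept silent in body cells by DNA methylation and by repressor complexes at their promoters. A liver at this age holds hepatoblasts and, above all, cells that make blood.

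The RefSeq promoters of all 10 genes were read because silencing and activation of these genes both act there. Each window ran from 250 bases before to 50 bases after the annotated start (assembly GRCm38.p6, 300 bases). The 250 upstream bases are printed for 2 of the genes with low intensities (Hormad1 and Sycp3) and for the 2 with the highest intensities (Rec8 and Syce2). Hormad1 and Sycp3 also had the largest log2 differences between the diets among the 10 genes. Capitals mark ACGTG or GCGTG, the core of hypoxia response elements, and GGCGGGA, the core bound by the repressor E2F6, on either strand.
Hormad1, chr3:95559427-95559676, plus strand: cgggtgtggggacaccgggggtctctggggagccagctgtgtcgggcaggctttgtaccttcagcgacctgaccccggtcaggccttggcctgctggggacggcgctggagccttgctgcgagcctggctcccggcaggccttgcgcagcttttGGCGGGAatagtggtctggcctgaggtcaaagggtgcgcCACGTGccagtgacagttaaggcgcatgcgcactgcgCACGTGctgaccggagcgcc
Sycp3, chr10:88459337-88459586, plus strand: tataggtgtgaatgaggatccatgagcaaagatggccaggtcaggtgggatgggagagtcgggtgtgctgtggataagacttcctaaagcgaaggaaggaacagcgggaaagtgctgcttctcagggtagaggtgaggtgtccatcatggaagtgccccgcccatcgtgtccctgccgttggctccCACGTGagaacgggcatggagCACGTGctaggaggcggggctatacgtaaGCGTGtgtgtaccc
Rec8, chr14:55617916-55618165, plus strand: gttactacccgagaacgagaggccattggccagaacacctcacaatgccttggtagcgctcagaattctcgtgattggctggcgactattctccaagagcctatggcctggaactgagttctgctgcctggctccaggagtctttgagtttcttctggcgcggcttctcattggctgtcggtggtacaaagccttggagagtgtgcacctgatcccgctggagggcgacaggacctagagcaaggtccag
Syce2, chr8:84871861-84872110, plus strand: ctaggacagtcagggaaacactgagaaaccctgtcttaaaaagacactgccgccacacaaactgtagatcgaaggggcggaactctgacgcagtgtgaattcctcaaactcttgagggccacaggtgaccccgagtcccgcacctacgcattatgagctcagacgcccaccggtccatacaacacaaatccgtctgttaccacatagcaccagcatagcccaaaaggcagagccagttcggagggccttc
The window of Hormad1 held 2 copies of the E-box CACGTG, which contains ACGTG on both strands, and 1 copy of GGCGGGA. Of the 10 genes, taking the first annotated start of each, 4 held CACGTG, 6 held ACGTG or GCGTG and 1 held GGCGGGA, where the shares of all 32851 promoters were 7.15%, 43.8% and 11.3%. The element CNCCTCAG, bound by the meiotic activator STRA8, was found in 2 of the 10 windows and in 7.94% of all. Among the other genes of low intensity, Sycp1 held 1 CACGTG, Hormad2 held no CACGTG, and Sycp2, the dimmest, held none of these elements. Stag3, with higher intensities, held 1 CACGTG. The printed windows therefore do not stand for low and bright genes in general. Syce2 has a second annotated start, chr8:84872008-84872307 for its window, which held 1 CACGTG, 3 copies of GCGTG, 2 of GGCGGGA and 1 CNCCTCAG. With any annotated start counted, 5 genes held CACGTG, 7 held ACGTG or GCGTG, 2 held GGCGGGA and 3 held CNCCTCAG. The median number of CpG pairs in the window was 18.5 for the 10 genes and 7 for all promoters. These matches describe the letters of the windows, and neither binding nor methylation was measured.

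The median intensity was between 70.2 and 120.5 on the 4 arrays, and between 65.4% and 70.0% of the spots were well above background, a flag the image software sets. CD replicate 2 was the dimmest array, and the CD arrays differed from each other (SD of log2 differences 0.58) more than from the HFD arrays (0.42 to 0.50). Every sample is labelled female, without a statement whether this is the fetus or the dam. The Y-linked transcript Eif2s3y had intensities of 2932 and 3479 on the arrays numbered 1 of the CD and HFD, and of 6.60 and 11.4 on those numbered 2. Xist, which is made from the inactive X chromosome, read 3.43 and 8.48 on the arrays numbered 1 and 448 and 543 on those numbered 2. Ddx3y, Kdm5d and Uty followed Eif2s3y. The arrays numbered 1 thus carried male transcripts in both diets, against the label if it describes the fetus, and the values of the arrays with the same number are also given alone below. With 2 arrays against 2, an exact permutation test cannot give a two-sided p under 0.333.

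All 4 arrays measured 5 of the 10 genes well above background (Syce2, Rec8, Stag3, Smc1b and Syce1), while Hormad1 carried that flag on 2 arrays, Sycp3 on 1, and another 3 genes on none (Hormad2, Sycp1 and Sycp2). By probe, 9 of the 16 lacked the flag on every array. Where a gene had more than 1 probe, the probes disagreed on this flag, except for the 2 probes of Sycp2. The lowest intensity that carried the flag was between 14.9 and 17.5 on the 4 arrays. The flag also depends on the pixels of the spot, so that Sycp1 at 19.1 on HFD replicate 1 and Hormad2 at 18.2 on HFD replicate 2 did not carry it. In the flag for a signal above its own local background, which is less strict, 9 of the 10 genes were positive on at least 1 array, and Sycp2 was not.

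**Figure D1:**
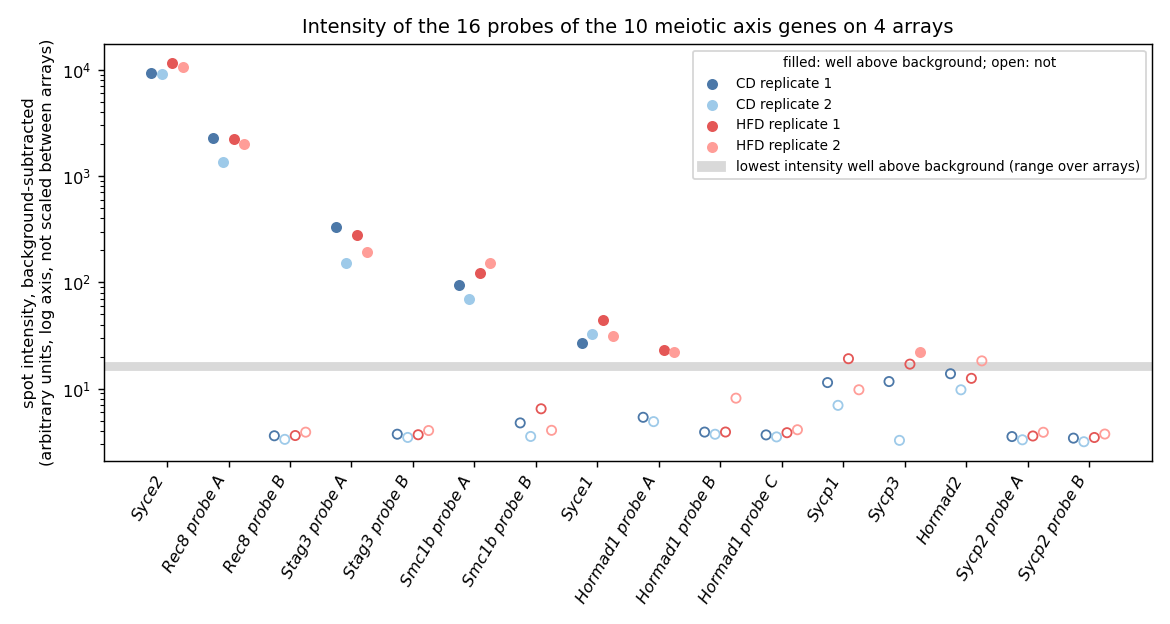
Background-subtracted intensity (log axis, arbitrary units) of the 16 probes of the 10 genes on the 2 CD and 2 HFD arrays, where each point is 1 array, filled points were well above background and the grey band spans the lowest intensities with that flag (14.9 to 17.5). Probes A, B and C of a gene are ordered by brightness. Syce2, Rec8 probe A, Stag3 probe A, Smc1b probe A and Syce1 lie above the band on all arrays, and Hormad1 probe A lies above it on the HFD arrays only.

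Hormad1 encodes a HORMA domain protein that sits on unpaired chromosome axes, promotes the DNA breaks from which recombination starts, and is removed as chromosomes pair. Its brightest probe, A_55_P2064180 (transcript NM_001289534), read 5.37 ± 3.65 on CD replicate 1 and 4.89 ± 3.39 on CD replicate 2, and 23.2 ± 4.33 and 22.2 ± 4.52 on the HFD arrays, where the error is that of the image software for 1 spot. Here and below, paired values are those of replicate 1 and then replicate 2. The HFD arrays were both higher and lay close together, and the groups did not overlap. In such bulk samples, fewer cells of a type and less RNA per cell cannot be told apart. On the CD arrays the probe was not well above background, and 6 and 13 of the 308 negative control spots of the same arrays were at least as bright, against 2 and 1 on the HFD arrays. The mean scaled level (log2 intensity minus the 75th percentile of the array) was -7.41 ± 0.33 in the CD and -5.37 ± 0.02 in the HFD group (SD, n = 2), a log2 difference of 2.04 (SE 0.22 from limma). Because the CD arrays give only a bound, the HFD group exceeded it by at least 1.34-fold, with the CD arrays set to their lowest level that was well above background. The difference was 2.26 between the arrays numbered 1 and 1.82 between the arrays numbered 2.

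The underlying spots were faint. Their median brightness was 43.0 and 41.5 in the CD group, and 56.5 and 61.0 in the HFD group, over local backgrounds of 31.5 and 34.0 in the CD and 39.0 and 42.0 in the HFD group. The brightness left after the local background was 11.5 and 7.5 for the CD and 17.5 and 19.0 for the HFD arrays, so both the spot and its surroundings were brighter on the HFD arrays. With normexp background correction, which starts from these values and adds an offset of 50, the log2 difference was 0.10. The intensities also ranked low on their arrays, at the 20.5 and 23.6 percentiles of all probes in the CD and the 36.2 and 36.0 percentiles in the HFD group.

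On no array were the other 2 probes of Hormad1 well above background. Probe A_51_P497870 (NM_026489) read 3.90 and 3.72 in the CD group, and 3.90 and 8.13 in the HFD group, and probe A_55_P1974869 (NM_001289537) read 3.67 and 3.51, then 3.85 and 4.10. HFD replicate 2 was the only array on which either stood out, at 8.13. Averaged over its 3 probes, the log2 difference of Hormad1 was 0.84. In the RefSeq annotation Hormad1 overlaps Gm40097, a gene for a long noncoding RNA, by 1983 bases. Which part of the transcript each probe reads was not checked.

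**Figure D2:**
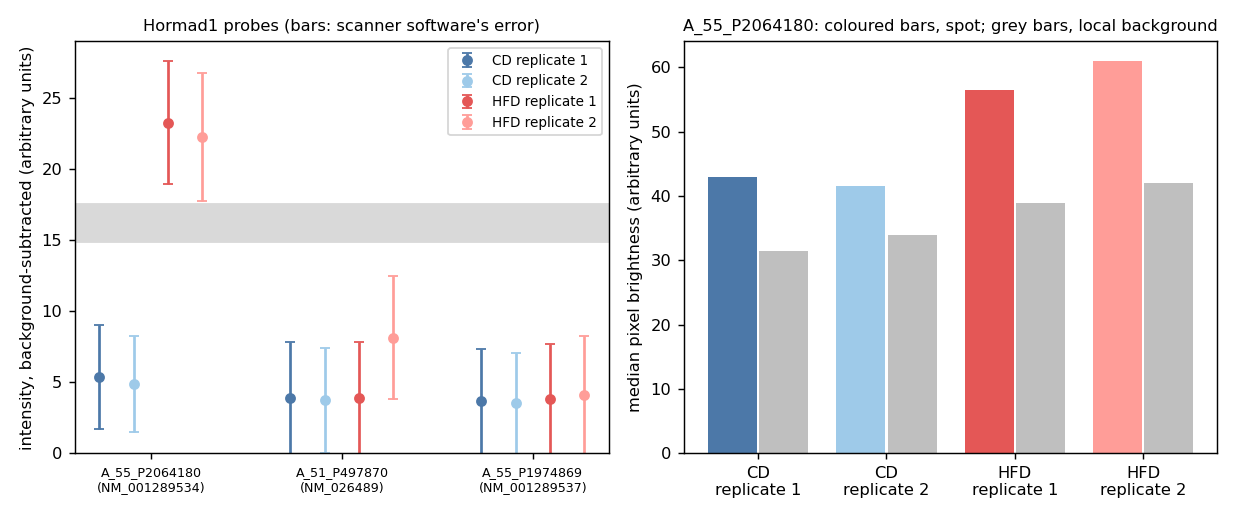
Left, intensity of the 3 Hormad1 probes on each array with the error given by the image software (arbitrary units), and the grey band of the lowest intensities well above background. Right, median pixel brightness of the spot (coloured) and of its local background (grey) for the brightest probe, where the spot goes from 43.0 and 41.5 on the CD arrays to 56.5 and 61.0 on the HFD arrays and the background from 31.5 and 34.0 to 39.0 and 42.0.

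Hormad2, the closest relative of Hormad1, marks unpaired chromosomes for the checkpoint that removes defective oocytes. Its probe read 13.8 and 9.74 in the CD group, and 12.5 and 18.2 in the HFD group, not well above background on any of them. The groups overlapped, with a log2 difference of 0.27 (SE 0.27).

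Sycp2 and Sycp3 form the axial element, the protein core of each chromosome axis, and Sycp1 is the filament that bridges the axes of a chromosome pair. The Sycp3 probe read 11.6 and 3.26 in the CD group, and 17.0 and 22.3 in the HFD group. Both HFD values were higher, but only HFD replicate 2 was well above background, and CD replicate 2 lay among the negative controls, of which 182 of 308 were at least as bright. The log2 difference was 1.55, and as a single array measured the transcript no fold is given. It was 0.69 between the arrays numbered 1 and 2.40 between those numbered 2, and 0.15 after normexp. The probe was left out of the comparison across all probes, because it was under the 20th percentile on CD replicate 2. In the RefSeq annotation Sycp3 overlaps the protein-coding gene Chpt1 by 3724 bases, and the part its probe reads was not checked.

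Sycp1 read 11.4 and 6.96 in the CD group, and 19.1 and 9.75 in the HFD group, where HFD replicate 1 was the highest. No array was well above background, and the log2 difference was 0.51 (SE 0.33) in scaled levels, which did not overlap. After normexp it was 0.00. Sycp2 had 2 probes at the level of empty spots. The brighter read 3.54 and 3.30 in the CD group, and 3.58 and 3.88 in the HFD group, beside median negative controls of 3.59, 3.34, 3.62 and 3.90 on the same arrays. Although its intensity was lower on CD replicate 2 than on CD replicate 1, its scaled level was 0.51 higher there, since the 75th percentile of each array had been subtracted. Differences between arrays in the scaled level of a probe at this floor therefore follow the scaling.

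Syce1 and Syce2 belong to the central element, which stabilizes the synaptonemal complex midway between the axes. The Syce2 probe had the highest intensities of the 16 probes, which do not rank transcripts of different probes, at 9273 and 9099 in the CD group, and 11580.4 and 10655 in the HFD group, at the 92.1 to 93.6 percentiles of the arrays. Its scaled levels overlapped between the groups, with a log2 difference of 0.16 (SE 0.25), and that difference was 0.47 between the arrays numbered 1 and -0.14 between those numbered 2. In the RefSeq annotation Syce2 overlaps Gcdh, a gene for a mitochondrial enzyme, by 1060 bases. The files hold no probe positions, so which part of the transcript the probe reads was not checked. Syce1 read 26.8 and 32.7 in the CD group, and 44.0 and 31.5 in the HFD group, well above background on all 4. Its groups overlapped, with a log2 difference of 0.22 (SE 0.36) that was 0.86 between the arrays numbered 1 and -0.43 between those numbered 2.

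Smc1b, Rec8 and Stag3 are subunits of meiotic cohesin, the ring that holds sister chromatids, and replace Smc1a, Rad21 and Stag1 or Stag2 of the cohesin of dividing body cells. Smc1b read 93.4 and 70.2 in the CD group, and 123.4 and 150.5 in the HFD group with probe A_51_P244303. Both HFD arrays were higher, and all 4 were well above background. The mean scaled level was -3.42 ± 0.14 in the CD and -2.78 ± 0.27 in the HFD group (SD, n = 2), a log2 difference of 0.64 (SE 0.21). It was 0.55 between the arrays numbered 1 and 0.73 between those numbered 2, and 0.30 after normexp. Its other probe, with intensities from 3.55 to 6.46, was not well above background. Smc1b lies across the gene Fam118a in the annotation, with 52892 shared bases.

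Rec8, the ring-closing subunit, read 2295 and 1349 in the CD group, and 2233 and 2019.8 in the HFD group with probe A_51_P246677. The scaled levels of the HFD arrays lay above those of the CD arrays, but by a mean of only 0.16 (SE 0.17). The second Rec8 probe is listed for the same transcript, NM_020002, and read 3.60 and 3.33, then 3.62 and 3.89, beside the same negative controls. Stag3, the subunit that supports the ring, read 333 and 151 in the CD group, and 279 and 192 in the HFD group with its brighter probe. The array numbered 2 was the dimmer in both groups, and the groups overlapped, with a log2 difference of -0.07 (SE 0.28). Its second probe, for the same transcript NM_016964, read between 3.47 and 4.03 and was not well above background. Stag3 overlaps Gpc2 and Gal3st4 in the annotation, while Sycp1, Sycp2 and Syce1 overlap only pseudogenes.

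The 13 genes of mitotic cohesin and its regulators, the counterparts of these subunits, each carried the flag on 4 arrays, and 0 of 13 passed the cutoffs described next. Their median log2 difference was 0.16. The log2 difference was 0.27 (SE 0.16) for Smc1a, 0.22 (SE 0.16) for Smc3, 0.15 (SE 0.17) for Rad21, -0.01 (SE 0.19) for Stag1 and 0.18 (SE 0.17) for Stag2.

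**Figure D3:**
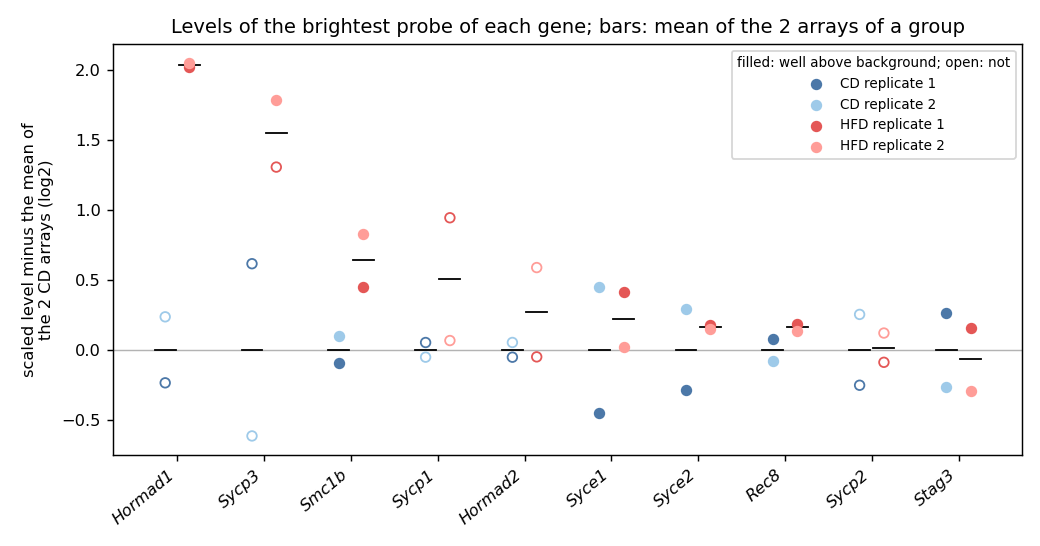
Scaled level of the brightest probe of each gene on each array, as the log2 difference from the mean of the 2 CD arrays, with horizontal bars for the mean of the 2 arrays of a group and filled points for arrays well above background. Hormad1 (2.04) and Sycp3 (1.55) have the highest HFD means, with CD points that are all open, while Smc1b (0.64) is the highest of the genes with 4 filled points.

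Across the whole array, 41332 probes passed the filters and were fitted with limma, with cutoffs at 2-fold and at 0.05 for the unadjusted p. Of these, 0.293% were higher and 0.477% lower in the HFD group, and 0 were called after Benjamini-Hochberg adjustment by limma (smallest adjusted p = 1.00), with 1383 at an unadjusted p under 0.05. Of the 16 probes 8 were tested, 1 for each of 8 genes. Among these 8, 1 was higher (Hormad1) and 0 lower. Counted by gene, with the brightest probe of each, 0.286% of tested genes were higher and 0.478% lower. Both HFD arrays lay above both CD arrays for 4 of the 8 probes (Hormad1, Sycp1, Smc1b and Rec8) and below them for 0, where the shares of all tested probes were 19.5% and 11.1%. As Hormad1 was chosen on this comparison, nothing is read from these counts.

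Over the 10 genes the median log2 difference was 0.24, beside 0.02 over all 22909 genes. Over the 5 genes well above background on every array it was 0.16, beside 0.04 over the 16595 such genes of the array. The differences were above 0 for 9 of the 10 genes between the group means, for 9 between the arrays numbered 1 and for 6 between the arrays numbered 2, where the shares of all 22909 genes were 57.1%, 64.4% and 46.0%. Sycp2, whose differences at the floor follow the scaling, is among the 9 in both cases and not among the 6. The median of the 10 genes was 0.51 between the arrays numbered 1 and 0.17 between those numbered 2, beside 0.13 and -0.04 over all genes. Beside it, the 2 CD arrays differed by a median of 0.15 over the same genes. Of the 10 genes, 6 were lowest on CD replicate 1 and 3 on CD replicate 2, and 4 were highest on HFD replicate 2, 2 on HFD replicate 1, 3 on CD replicate 2 and 1 on CD replicate 1. Over all genes, the median difference from CD replicate 1 was 0.14 for CD replicate 2, 0.13 for HFD replicate 1 and 0.12 for HFD replicate 2. Nothing is read from the counts of lowest and highest arrays, for which the shares of all genes were not counted.

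Genes that work with the axis in recombination and chromosome pairing were taken as a list of 35, of which 31 had a probe and 21 were tested. None was past the cutoffs (0 higher and 0 lower), and the median log2 difference was 0.08 over the 16 that carried the flag on each array. Another 9 carried it on none, among them Majin, Terb1 and Meikin, which act only in meiosis, and Tex12. Majin, Terb1 and Meikin hardly differed between the groups, while Tex12 read 3.38 and 3.06 in the CD group, and 7.27 and 13.6 in the HFD group. These genes were named after their values were seen. Trip13, the enzyme that strips HORMA proteins from the axis and that also acts in the mitotic checkpoint, read 8804 and 6728 in the CD group, and 9536 and 8923 in the HFD group, a log2 difference of 0.15 (SE 0.17). Rec114, a partner of the enzyme that makes meiotic DNA breaks, read 6777 and 3974, then 8525 and 9115, a log2 difference of 0.65 (SE 0.18). For Rec114 the HFD arrays were both higher, and like Smc1b it stayed under the 2-fold cutoff.

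Of the genes that start meiosis or hold it silent in body cells, 15 of 16 had a probe, and all 15 carried the flag throughout, with a median log2 difference of 0.05 and 0 past the cutoffs in either direction. Cbx3 and Uhrf1, the brightest of them, which read silent chromatin and methylated DNA, differed by 0.06 (SE 0.19) and 0.06 (SE 0.20). Stra8, the switch that retinoic acid turns on as meiosis begins, is named after its values were seen. It read 43.8 and 23.2 in the CD group, and 33.9 and 164 in the HFD group, so that HFD replicate 2 alone stood apart, with a log2 difference of 1.11 (SE 0.81).

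Markers of germ cells, in which the axis genes are known to act, were read on the same arrays. Of 21 germ cell markers 20 had a probe, 9 carried the flag on each array and 4 on none (Piwil2, Mov10l1, Nobox and Figla). Their summed level was 3.26 and 3.11 times the 75th percentile on the CD arrays and 3.83 and 3.39 times on the HFD arrays, the median log2 difference of the 9 was 0.33, and 0 of the 14 tested passed the cutoffs. That median rested on HFD replicate 1, without which it was 0.03, and was 0.08 after normexp, while 3 genes passed the cutoffs without HFD replicate 2. On HFD replicate 1 lay the highest level of 15 of the 20 markers. The share of all genes highest on that array was not counted, and the 4 markers without the flag are among the 20, so nothing is read from this count. The marker Mael read 3.87 and 6.80 in the CD group, and 49.4 and 24.0 in the HFD group, and Ddx4 read 81.5 and 47.4, then 146.7 and 90.6. Dppa3 read 21.3 and 3.24, then 193 and 17.8, with HFD replicate 1 apart from the other arrays. Other markers had a lower mean level in the HFD group, such as Tdrd1 (268 and 93.0, then 141 and 110.1, log2 difference -0.45, SE 0.35) and Tdrd9 (19.7 and 10.7, then 12.3 and 8.56, log2 difference -0.61, SE 0.23). The groups overlapped for Tdrd1, where CD replicate 1 stood apart. Tdrd9 was well above background on only 1 array, of the CD group, so its difference lies near the floor. These 5 genes were named after their values were seen. The brightest markers, Nanos3 and Rnf17, differed by -0.22 (SE 0.17) and 0.59 (SE 0.26). They weigh heavily in the summed level of the germ cell list, which therefore does not describe its other markers.

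**Figure D4:**
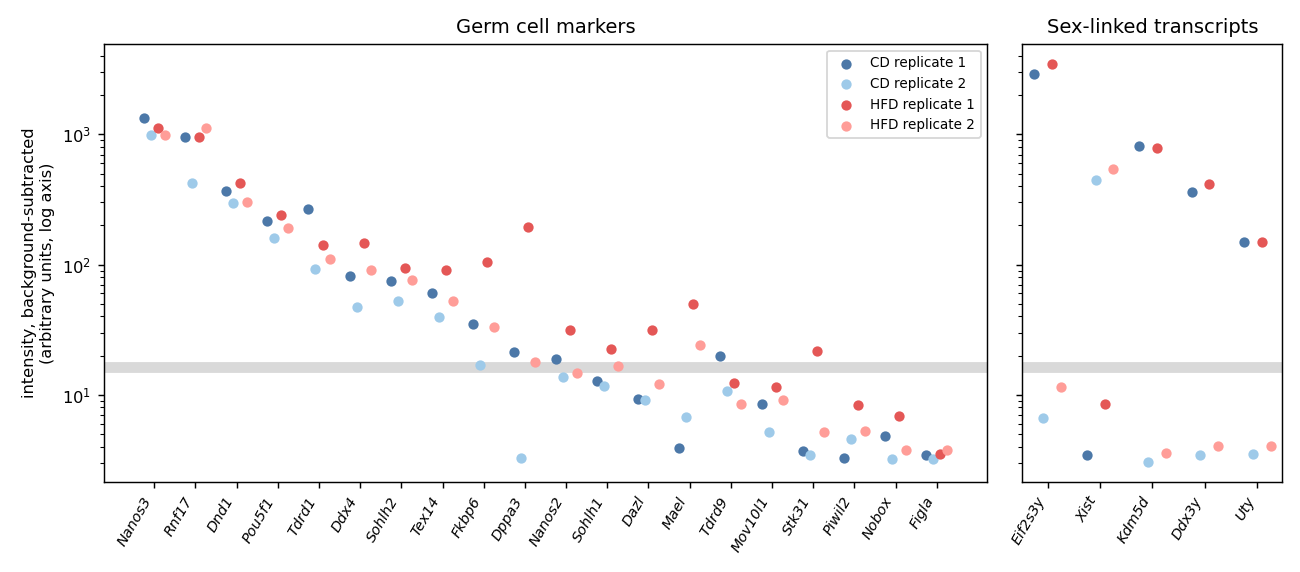
Intensity (log axis, arbitrary units) of the 20 germ cell markers with a probe and of 5 sex-linked transcripts, where each point is 1 array and the grey band spans the lowest intensities well above background. HFD replicate 1 is the highest array for germ cell markers such as Mael (49.4) and Ddx4 (146.7), and CD replicate 1 for others such as Tdrd1 (268). The arrays numbered 1 carry the Y-linked transcripts.

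Markers of neighbouring tissues were read as well. Of the gonad somatic and steroidogenic list, 18 of 19 genes had a probe, 15 carried the flag on each array with a median log2 difference of 0.32, and 2 of 15 tested were past the cutoffs, both higher. These were Nr5a1, the master regulator of gonad and adrenal (322 and 141, then 454 and 613, log2 difference 1.20, SE 0.30), and Cyp11a1, the first enzyme of steroid synthesis (363 and 102, then 587 and 993, log2 difference 1.87, SE 0.52). Without CD replicate 2 the list had 0 genes past the cutoffs and a median of 0.15, and without CD replicate 1 it had 6 and a median of 0.84. The summed level of that list was 44.1 and 57.3 in the CD group, and 46.5 and 55.0 in the HFD group, so the sums overlapped. The brightest gene of the list, Foxl2, gave a large part of them and is named for that. Its scaled levels were 4.45 and 5.38, then 4.51 and 4.69. The overlap of the sums therefore does not describe the rest of the list. Amh, made by the supporting cells of the fetal testis and named after its values were seen, read 3.65 and 3.39, then 28.3 and 3.96, above background on HFD replicate 1 alone. Of the kidney list, 14 genes carried the flag on each array, with a median log2 difference of 0.25, and the summed level was 113 and 126 in the CD and 141 and 134 in the HFD group. Most of these sums came from the brightest gene, Eya1, named for that (scaled levels 6.37 and 6.44, then 6.71 and 6.61). Trophoblast and decidua markers had a median log2 difference of -3.85 over 16 genes. Both HFD arrays lay below both CD arrays for 10 of these 16 and above for 0, among them Tpbpa of the spongiotrophoblast (8628 and 19666, then 1942 and 451, log2 difference -3.91), named after its values were seen. Over all tested probes the shares were 11.1% below and 19.5% above. Those shares cover only probes that passed the filters, so they are not of like probes. Of the 18 genes of this list with a probe 7 passed the filters, and Tpbpa did not. The 0 of these 7 past the cutoffs thus leaves out many of the genes that differed most, and normexp placed 4 genes of the list lower. The brightest, Psg23 and Gcm1, differed by -0.19 (SE 0.31) and 0.55 (SE 0.48). The summed level of the list was 104 and 141 in the CD group, and 80.4 and 94.4 in the HFD group. Psg23 and Gcm1 weigh heavily in these sums, which therefore understate the differences of genes such as Tpbpa. The part of these tissues in the values of the axis genes was not tested.

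For the labelled tissue, all 20 hepatoblast and hepatocyte genes and all 14 erythroid genes with a probe were well above background on every array. The same held for 16595 of all 22909 genes, so this flag alone does not identify the tissue. The median log2 differences of the hepatocyte and erythroid lists were 0.00 and 0.17, with 0 past the cutoffs in each list. The brightest were Serpina1a and Alb, plasma proteins of the liver (0.00, SE 0.26, and -0.07, SE 0.34), and the globins Hba-a1 and Hbb-bt (-0.09, SE 0.25, and -0.09, SE 0.27). The summed level of the liver genes was 2172 and 3349 in the CD group, and 2622 and 2654 in the HFD group, and that of the erythroid genes 1907 and 2367, then 2145 and 2407. The 16 hypoxia-induced genes, a list kept because hypoxia of the liver was a subject of the study, were all well above background, with a median log2 difference of 0.17 and 0 past the cutoffs. The brightest, the glycolytic genes Ldha and Pgk1, differed by 0.05 (SE 0.21) and 0.17 (SE 0.18). Both HFD arrays lay above both CD arrays for 8 of the 16 and below for 1. The shares of all tested probes were 19.5% and 11.1%. In the same count, mitotic cohesin had 8 of 13 above and 0 below, and the erythroid list 5 of 14 and 0. What lies behind these counts was not tested.

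The genes whose levels across the 4 arrays were most like those of the Hormad1 probe were Ezhip, Tmem74, 4930405O22Rik, Acsbg1 and Olfr1222. Likeness was the root mean square difference of levels centred on each probe's mean, over 16935 genes well above background on both HFD arrays. Ezhip, a germline inhibitor of Polycomb repressive complex 2, was the nearest at 0.17, with intensities of 8.54 and 6.82 in the CD group, and 39.9 and 28.3 in the HFD group. The others lay between 0.44 and 0.51, and Acsbg1, a fatty acid activating enzyme of brain and steroid-making tissue, was the only one of the 5 that was well above background on every array, at 71.2 and 45.4, then 255 and 118. Except for Acsbg1, these genes entered only through the HFD arrays, and their CD levels, like those of Hormad1, were not well above background. The order therefore repeats the values by which Hormad1 was chosen, and nothing is read from it.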

How the data were processed

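Single-colour arrays were hybridised by the authors with Cy3-labeled cRNA and read with Agilent Feature Extraction 11.0.1.1, per the submitters' processing notes. The deposited intensity of each spot is background-subtracted and not scaled between arrays. Spot and local background brightness and the detection flags (scores of 0 or 1) were deposited with it. A further table of the authors holds normalized signal, the intensity divided by 1 constant per array (702 to 1068), and served as an alternative.

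From the intensities, the spots of a probe were averaged as log2 values after outlier spots had been left out, and the 75th percentile of each array was subtracted. Probes that fell under the 20th percentile of an array (14980 of 56596), or had a CV over 50% in both groups (284), were left out. The percentile filter follows the paper's methods. The CV was taken on the linear scale where those methods name a log scale value, and on the log2 signal 118 probes were higher and 212 lower, beside 121 and 197. The other 41332 were fitted with limma 3.58.1 in R 4.3.3, with no covariate. Probes were named through RefSeq (GRCm38.p6), which gave 32994 of 56605 probes a symbol. A level below the lowest well above background was treated as a bound. The number of arrays limits the precision.

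The members and lists were chosen with earlier results of these data known. Named were every member probe, other listed genes past the cutoffs and otherwise the brightest 2 of a list, the sex-linked transcripts, mitotic cohesin subunits and the 5 genes most like Hormad1. The rule covers 1 more gene, which is left out of the text. The steps were tested on simulated data. Tables and plots were made with pandas 2.3.3, numpy 2.4.6 and matplotlib 3.10.9 in Python 3.11.15.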

Additional observations from a re-analysis of the deposited data

How the results depend on the processing

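Other scalings, filters and background corrections, a floor of 5 on the signal, the authors' normalized table, the methods' t-test in 2 forms, the replicate block and the loss of each array were tried. Over all probes, 121 were higher and 197 lower in the HFD group. Normexp gave 13 and 35, no percentile and CV filter 373 and 478, the methods' t-test at p alone 1471 and 618, and Welch's correction 707 higher. The filter on signals well above background gave 72 higher and the signal floor 326 lower. Leaving out 1 array gave 190 to 843 higher (843 without CD replicate 1) and 383 to 466 lower. The methods' t-test and its Welch form called 0 probes after Benjamini-Hochberg adjustment.

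Of the member probes 1 was past the cutoffs, and 0 with normexp or Welch's correction. With the deposited table, the signal floor or no filter there were 2, Hormad1 and Sycp3. The log2 difference of Hormad1 was 0.10 with normexp, whose offset of 50 exceeds the brightness left at that spot, and 0.84 over its 3 probes. In the other alternatives it kept to 1.80 to 2.27. The median of the 10 genes ranged from 0.14 to 0.45 when 1 array was left out. The sign of the difference changed in 1 setting each for Hormad2, Syce1 and Syce2, in 2 for Stag3 and in 4 for Sycp2. Of the other lists 3 genes were past the cutoffs, 6 with normexp and 1 to 12 when 1 array was left out (12 without CD replicate 1, 1 without CD replicate 2).

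The groups share replicate numbers. Same-numbered arrays did not deviate together (r = -0.10 over 41332 probes), although they share their sex-linked transcripts, so the replicate block is an alternative only: it called 177 probes higher and 258 lower, and Hormad1 alone among the member probes. Normexp was planned on the mean brightness and run on the median, since no column used here holds the mean. Intensity over background limits Hormad1, Hormad2, Sycp1, Sycp2 and Sycp3.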
